A study of Mus musculus with 6 samples.

Results

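Aminoacyl-tRNA synthetases attach each amino acid to its own tRNA, and so supply the charged tRNAs that ribosomes read. Animal cells keep one set of these enzymes for the cytosol and another, encoded by separate nuclear genes, for the mitochondrion, where a small set of respiratory chain proteins is made. Many cytosolic enzyme genes are known targets of ATF4, the transcription factor of the amino acid response. The genes described here are the rows of the deposited table annotated with the KEGG term for aminoacyl-tRNA biosynthesis, 43 of the table's 19353 genes. By textbook localisation they fell into 19 cytosolic synthetases, 16 mitochondrial synthetases (names ending in 2), 2 enzymes that serve both compartments (Gars and Kars) and 6 genes of related steps. Tarsl2 ends in 2 but encodes a cytosolic threonyl-tRNA synthetase and was placed there. Lars2, the mitochondrial leucyl enzyme, carries no KEGG term in the table and is not a member.

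Both groups were mesenchymal stem cells from the bone marrow of wild-type mice, a stromal cell able to become an osteoblast, under osteogenic induction. All 6 samples received dexamethasone (100 nM), ascorbic acid (50 µM) and β-glycerophosphate (10 mM), and 3 of them also the neuropeptide melanin-concentrating hormone (MCH, 0.5 µM). The 3 without MCH are called Control. The titles place the harvest on day 9, the design text on day 8. Whether the replicates were separate cultures or animals is not said, so a p-value here covers only the spread among these libraries, possibly a technical one. The comparison asks how transcript levels under osteogenic induction differ when MCH is present, and every direction rests on the column names of the table, which name MCH but not Control.

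Each library held between 16521980 and 18803949 counted reads. Stromal genes and some osteoblast genes marked the cells, and several of them were themselves lower with MCH. The 10 stromal markers summed to 8013 to 8870 CPM (read counts scaled to library size) with MCH and 11340 to 12310 CPM in Control, with 5 of 10 called lower and none higher. Most of these sums came from Col1a1 and Col1a2. In 7 of the 10 every MCH library lay below every Control library, beside 16.6% of all genes, and 1 change lay above 0. Of the markers not called, Prrx1 (-0.17 ± 0.07) and Lepr (-0.71 ± 0.40, at 5 to 20 counts) were among these 7. Cxcl12 had a change of -0.09 ± 0.07 and Eng of 0.04 ± 0.16, both with overlapping groups. Of 7 osteoblast markers 5 were measured and 3 tested. The 5 summed to 552 to 574 CPM with MCH and 1128 to 1165 CPM in Control. Spp1 and Alpl were called lower, and Runx2 was not called (-0.24 ± 0.07, edgeR adjusted p = 0.0822). In all 3 every MCH library lay below every Control library. Sp7 and Bglap had at most 4 counts in any library. In bulk RNA fewer cells of a type and less RNA per cell cannot be told apart. Ptprc, carried by all leukocytes, had at most 2 counts in a library. The 11 monocyte and macrophage markers summed to between 138 and 180 CPM with MCH and between 166.5 and 170.6 CPM in Control, with Cd14 lower. Of the 5 tested among them 4 had changes above 0 (median 0.47), none called higher by edgeR and 1 by DESeq2. Cd68 had no overlap between the groups (0.47 ± 0.13, adjusted p = 0.0655). Several of these markers were highest in MCH replicate 3. There Adgre1 had 50 counts against 0 to 11 elsewhere, Ctss 92 against 5 to 23, and Lyz2 176 against 52 to 110. Csf1r had 95 counts there against 43 to 51, and C1qb, C1qc and Itgam also had their highest counts in it. Cd14 did not stand out in that library, and C1qa and Fcgr1 had at most 3 counts in any. Of 3 adipocyte markers Fabp4 alone was tested, at 43.1 to 58.5 CPM with MCH and 63.6 to 71.5 CPM in Control, and it was not called. Adipoq and Plin1 had at most 3 and 2 counts in a library. Of 4 lymphocyte markers Cd3e alone was called, higher with MCH (7.33 to 8.88 against 2.40 to 3.19 CPM). Pax5 had a change of -0.16 ± 0.26, and Cd79a and Il7r had at most 2 and 5 counts in a library. Granulocyte and endothelial sums overlapped between the groups, and erythroid markers stayed under 0.5 CPM. On the first principal component MCH replicate 1 (-10.9) lay nearer to Control (18.9 to 25.5) than MCH replicates 2 (-32.3) and 3 (-24.8) did. The part of these differences in the results below was not tested.

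With MCH, 6 of the 43 members were higher and none was lower (adjusted p under 0.05 by the quasi-likelihood test of edgeR, Benjamini-Hochberg over all 13662 genes tested). All 43 passed the filter on low counts. The 6 were Farsb, Lars and Tars of the cytosol, Cars2 of the mitochondrion, and Gatc and Qrsl1, subunits of a mitochondrial tRNA-modifying enzyme. Over all genes tested, 3.64% were called higher and 5.4% lower. No member was lower at an unadjusted p under 0.05 either, or by DESeq2, while 16 were higher at that unadjusted p and 7 were higher by DESeq2. Of 13652 genes tested by DESeq2, 671 were higher and 848 lower. The share of all genes at the unadjusted p is not given here, so the 16 stand without a background. The changes were small: the median log2 fold change of the 43 was 0.16, beside 0.00 over all genes, and 35 of 43 lay above 0, beside 50.3% of all genes. In 20 of 43 members all 3 MCH libraries lay above all 3 Control libraries, beside 16.1% of all genes, and in none did they all lie below, beside 16.6%. In the authors' deposited table no member is marked as changed, and the lowest q-value among members is 0.0825, for Pstk.

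**Figure D1:**
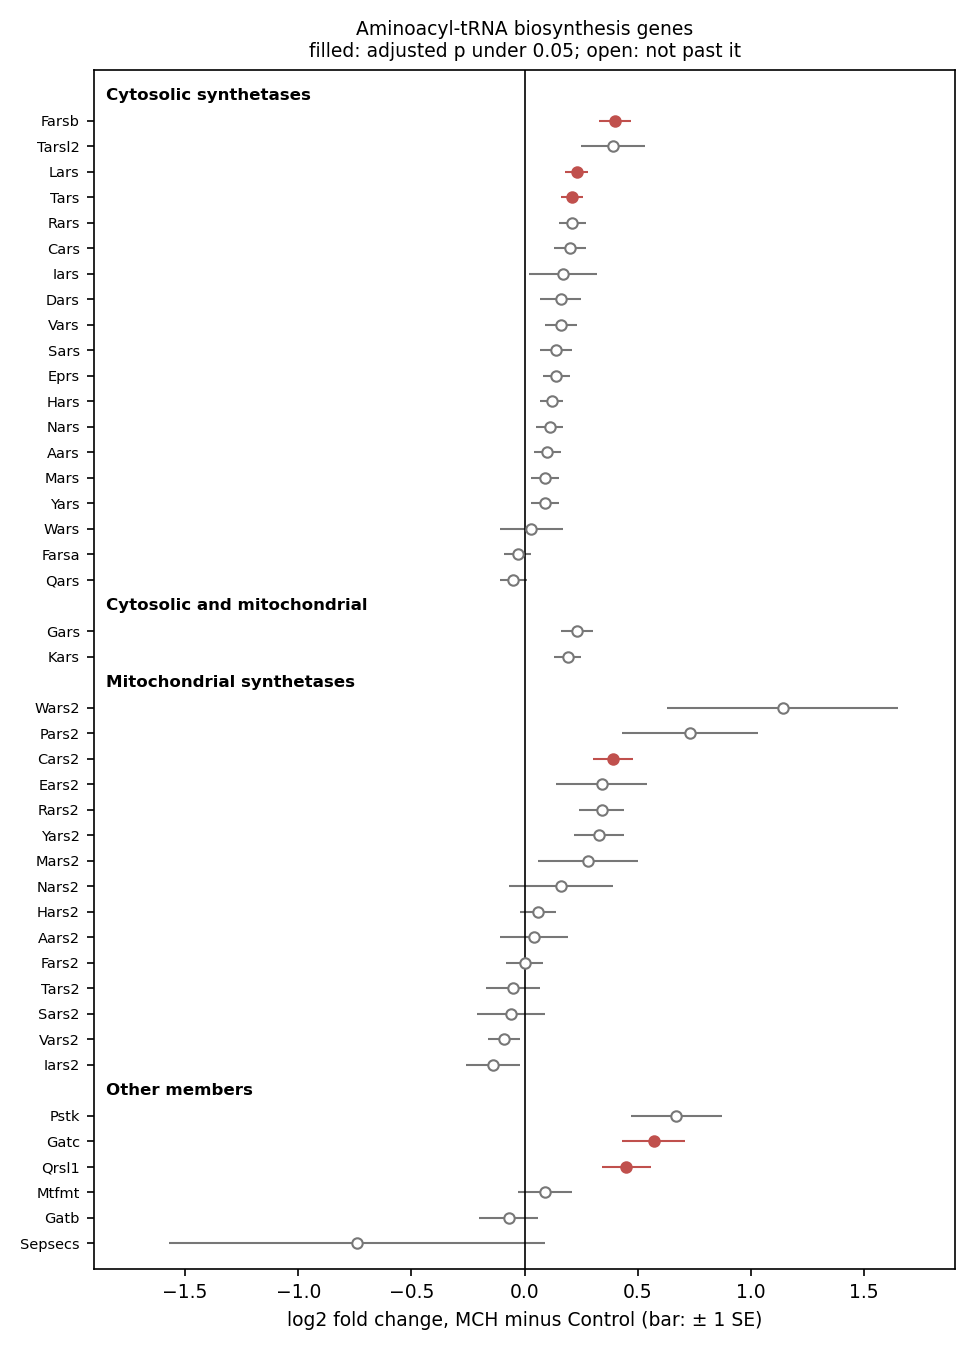
Log2 fold change (MCH minus Control, horizontal axis, bars ± 1 SE) of 42 of the 43 members by compartment, with filled points for an adjusted p under 0.05. Most points lie to the right of 0, the cytosolic enzymes lie close together with short bars, and the mitochondrial ones spread wider with longer bars.

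The call count changed when 1 library was left out, for the members as for all genes. Without MCH replicate 2 or 3, or without Control replicate 2 or 3, no member was called. In these fits 116, 65, 110 and 106 of all genes were called higher, against 497 with all libraries. Without Control replicate 1 there were 2 members and 285 genes, and without MCH replicate 1 there were 11 members and 722 genes. The median log2 fold change of the 43 moved less, from 0.14 to 0.18 over these 6 fits, and 33 to 36 members were above 0. After correction for transcript length and GC content, which was added after seeing the data, 12 members were called, 7 of them cytosolic. Over all genes 1025 were then called higher, and the median of the members was 0.22, beside 0.043 over all genes.

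The upstream sequences are shown because most cytosolic enzymes had changes in the same direction and ATF4 is known to bind a composite element, read here as TGATGNAA on either strand. RefSeq promoter windows (build GRCm38.p6, 250 bases before to 50 after each gene start) were at hand for 30 of the 43 members. The motif was present in 5 of these 30 (16.7%) and in 1219 of all 27025 genes with a window (4.51%). Of the 6 called members, Tars had a match, Farsb, Cars2, Gatc and Qrsl1 had a window without one, and Lars had no window. Whether ATF4 had a part in the changes was not tested. The genes with a match encode enzymes of the cytosol, and Gars serves both compartments. A match is a run of letters and not a measured binding site. For 4 of them the match with 11 bases on either side is given 5′ to 3′ on the gene's strand, with the match in capitals; Yars holds it on that strand and Tars, Iars and Gars on the opposite one. From the start site, the matches begin at -30 in Gars, 8 in Iars, -15 in Tars and 4 in Yars.
Tars, chr15:11399655-11399684, minus strand: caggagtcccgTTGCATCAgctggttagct
Iars, chr13:49682126-49682155, plus strand: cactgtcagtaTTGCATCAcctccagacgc
Gars, chr6:55037960-55037989, plus strand: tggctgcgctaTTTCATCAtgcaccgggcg
Yars, chr4:129189895-129189924, plus strand: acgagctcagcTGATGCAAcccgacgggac

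Of these 4, Tars was called. The log2 fold changes of the others were 0.23 ± 0.07 for Gars (SE), 0.17 ± 0.15 for Iars and 0.09 ± 0.06 for Yars, none past the threshold. The 250 bases upstream of Tars and of Farsb, the member with the smallest p, are shown for comparison, since the first holds the match and the second does not.
Tars, chr15:11399659-11399908, minus strand: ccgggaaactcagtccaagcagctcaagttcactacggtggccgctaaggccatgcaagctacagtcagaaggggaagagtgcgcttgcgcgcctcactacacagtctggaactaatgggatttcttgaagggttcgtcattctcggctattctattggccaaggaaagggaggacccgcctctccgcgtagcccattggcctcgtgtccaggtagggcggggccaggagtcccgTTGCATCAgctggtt
Farsb, chr1:78488898-78489147, minus strand: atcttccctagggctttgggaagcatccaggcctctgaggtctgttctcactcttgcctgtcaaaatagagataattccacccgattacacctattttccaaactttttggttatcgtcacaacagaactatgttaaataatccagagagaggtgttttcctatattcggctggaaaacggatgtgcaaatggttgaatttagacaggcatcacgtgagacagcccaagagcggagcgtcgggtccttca

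Among the cytosolic synthetases 3 of 19 were higher (15.8%), and 17 of 19 changes lay above 0, with a median log2 fold change of 0.14 and a range from -0.05 to 0.40. In 12 of the 19 (63.2%) all MCH libraries lay above all Control libraries. Among all 8039 genes within the same range of mean counts, this held for 20.4%, and 5.14% were called higher. The summed level of the 19 was 4454, 4666 and 4475 CPM with MCH and 4092, 4090 and 4146 CPM in Control. The lowest MCH library thus lay above the highest Control library, by a small part of the level. The library's median log2 difference from the Control mean was 0.15, 0.19 and 0.12 over the 19 genes in the MCH libraries, and -0.02, -0.01 and 0.03 in the Control libraries.

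**Figure D2:**
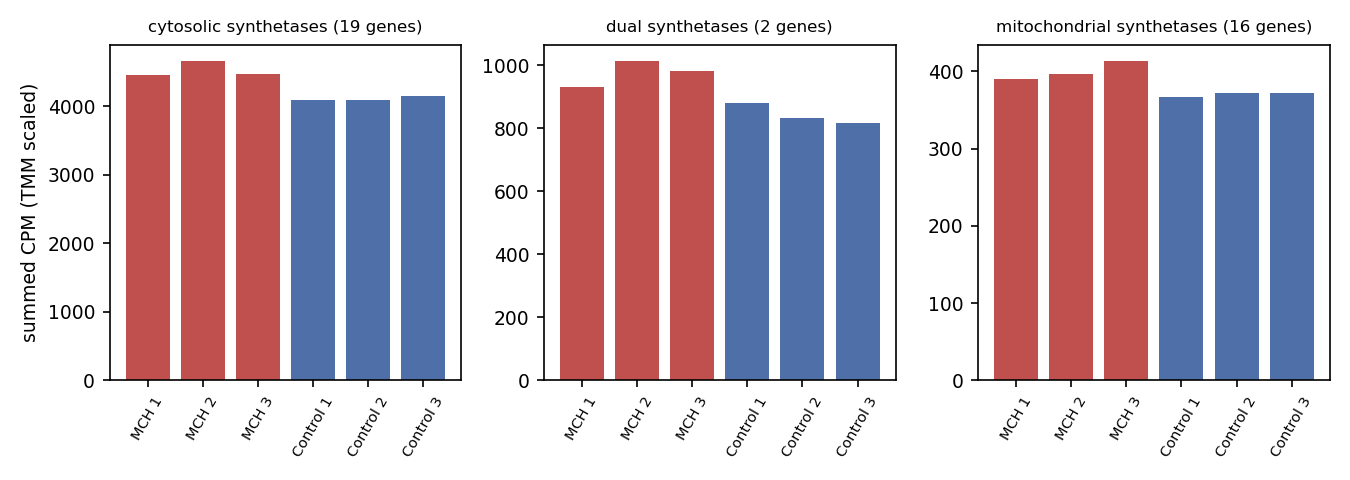
Summed CPM (vertical axis, from 0) of the cytosolic, dual and mitochondrial synthetases in each of the 6 libraries. In all 3 panels every MCH bar (red) stands above every Control bar (blue), by a small margin; the mitochondrial sum leaves out Lars2, with which the groups overlap.

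Farsb (ENSMUSG00000026245, chr1:78417975-78488897, GRCm38) encodes the beta subunit of the cytosolic phenylalanyl-tRNA synthetase. It had 63.7, 70.3 and 70.8 CPM with MCH and 53.5, 50.5 and 51.4 CPM in Control. The groups did not overlap, and MCH replicate 1 was the lowest of its group. The log2 fold change was 0.40 ± 0.07 (SE; edgeR adjusted p = 0.0181), a fold of 1.32. Its exons share 248 bases with Sgpp2 on the opposite strand. When each library was dropped in turn, Farsb passed without MCH replicate 1 and without Control replicate 1, and missed the threshold without each of the other 4 (highest adjusted p = 0.0867). Farsa, which encodes the alpha subunit of the same enzyme, had 89.8, 89.5 and 93.6 CPM with MCH and 95.7, 87.6 and 95.4 CPM in Control, with overlapping groups and a log2 fold change of -0.03 ± 0.06 (adjusted p = 0.800).

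The partner subunits were also compared within each library. The ratio of Farsb to Farsa FPKM (the authors' fragments per length and depth) within a library was 1.33, 1.47 and 1.41 with MCH and 1.04, 1.08 and 1.01 in Control. All 3 MCH ratios lay above all Control ratios (1.40 ± 0.072 against 1.04 ± 0.035, SD, n = 3). The ratios here and below were formed for genes already called higher in these libraries, so they are a description with no test. A ratio within a library does not depend on scaling between libraries.

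Lars (ENSMUSG00000024493, chr18:42202350-42262122) encodes leucyl-tRNA synthetase, which is also known as a leucine sensor upstream of mTORC1. It had 248.9, 262.5 and 264.7 CPM with MCH and 223.9, 219.3 and 217.7 CPM in Control. The groups did not overlap, and the log2 fold change was 0.23 ± 0.05 (adjusted p = 0.0388). Tars (ENSMUSG00000022241, chr15:11383663-11399658) encodes threonyl-tRNA synthetase and had 277.2, 297.3 and 284.7 CPM with MCH and 243.6, 248.2 and 248.7 CPM in Control. Its groups did not overlap either. With a log2 fold change of 0.21 ± 0.05 its adjusted p was 0.04996, just inside the threshold, and Rars, the arginyl enzyme, stood just outside with the same change (0.21 ± 0.06, adjusted p = 0.0565). The Lars and Tars calls both held without MCH replicate 1 and were both lost without each of the other 5 libraries (highest adjusted p = 0.161 and 0.163). Tars was also not called with upper-quartile scaling (adjusted p = 0.0565), with no filter on low counts, with limma-voom or with limma on FPKM (highest adjusted p of these 0.0639).

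**Figure D3:**
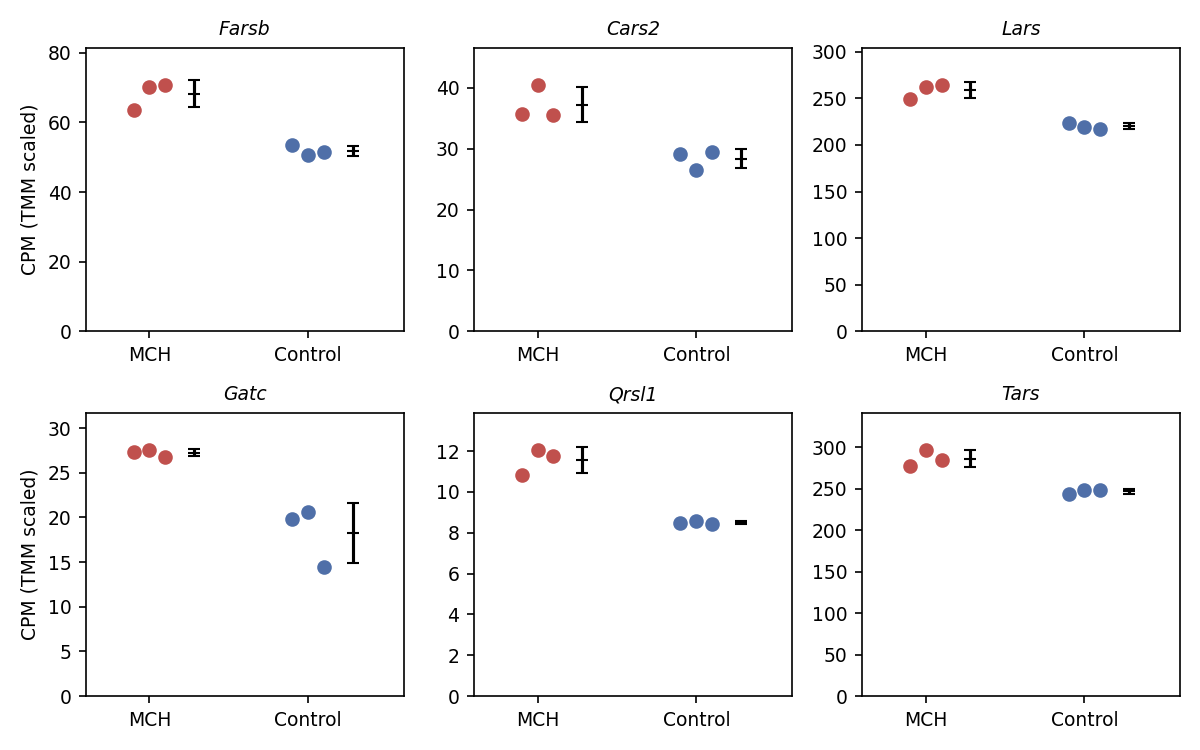
CPM (vertical axes, from 0) of the 6 members called higher, in each MCH (red) and Control (blue) library, with mean ± SD in black. No panel has overlapping groups, and Gatc shows 1 Control library well below the other 2.

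Rars had 215, 234 and 222 CPM with MCH and 196, 192 and 192 CPM in Control, with no overlap. The dual enzyme Gars, which charges glycine tRNAs, had 565.7, 631.5 and 596.9 CPM with MCH and 534.2, 503.5 and 497 CPM in Control (log2 fold change 0.23 ± 0.07, adjusted p = 0.0785). Kars, the lysyl enzyme, had 365, 383 and 383 CPM with MCH and 347, 329 and 318 CPM in Control (0.19 ± 0.06, adjusted p = 0.0930). For both dual enzymes every MCH library lay above every Control library, without a call.

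Several cytosolic synthetases are held together in the multisynthetase complex by the scaffold proteins Aimp1, Aimp2 and Eef1e1. Of its 8 enzymes among the members, 1 (Lars) was called and 7 changes lay above 0, with a median log2 fold change of 0.17. Among the 13 cytosolic and dual members outside the complex, 2 were called and 12 lay above 0, with a median of 0.14. Over all genes tested 3.64% were called higher and 50.3% lay above 0, and 5.14% were called among genes in the cytosolic range of mean counts. The Eprs gene, whose product charges both glutamic acid and proline tRNAs, had 334, 326 and 337 CPM with MCH and 296, 318 and 288 CPM in Control. The groups did not overlap and the change was 0.14 ± 0.06 (adjusted p = 0.173).

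Iars, the isoleucyl enzyme, had 181, 209 and 142 CPM with MCH and 140, 162 and 170 CPM in Control, so MCH replicate 3 lay among the Control libraries. Dars (aspartyl) had 81.6, 68.3 and 68.6 CPM with MCH and 62.4, 66.9 and 66.5 CPM in Control, without overlap (0.16 ± 0.09). Mars (methionyl) had 175, 180 and 164 CPM with MCH and 160, 161 and 169 CPM in Control. These 3 enzymes of the complex did not pass the threshold. Qars, the glutaminyl enzyme, was the 1 complex enzyme with a change below 0 (-0.05 ± 0.06), at 124, 117 and 114 CPM with MCH and 118, 123 and 128 CPM in Control.

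The other cytosolic enzymes did not pass, and their changes were small except for that of Tarsl2. Vars (valyl, 0.16 ± 0.07), Sars (seryl, 0.14 ± 0.07), Hars (0.12 ± 0.05) and Aars (alanyl, 0.10 ± 0.06) had no overlap between the groups, nor did Tarsl2, at 19.95, 17.8 and 18.2 CPM with MCH and 11.5, 16.4 and 14.7 CPM in Control (0.39 ± 0.14, adjusted p = 0.125). Nars (0.11 ± 0.06), Yars (0.09 ± 0.06) and Wars (tryptophanyl, 0.03 ± 0.14) had overlapping groups. Aars shares 1326 exon bases with Exosc6 on the same strand, and Tarsl2 shares 120 with Tm2d3, also on the same strand.

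The scaffold genes carry no KEGG term and are not members. Eef1e1 had 36.8, 40.0 and 38.3 CPM with MCH and 30.9, 29.5 and 32.2 CPM in Control and was called higher (0.32 ± 0.08, adjusted p = 0.0442). Aimp2 (0.15 ± 0.07) and Aimp1 (0.29 ± 0.13) did not pass. By catalytic class, 2 of 17 class I synthetases and 2 of 19 class II synthetases were called, beside 3.64% of all genes, with medians of 0.20 and 0.14.

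Among the mitochondrial synthetases 1 of 16 was higher (6.25%), and 12 of 16 changes lay above 0, Fars2 barely so (0.00). Their median log2 fold change was 0.22, with a range from -0.14 to 1.14, beside the cytosolic median of 0.14. In 3 of the 16 (18.8%) all MCH libraries lay above all Control libraries, beside 16.6% of the 7577 genes within the same range of mean counts, of which 3.62% were called higher. The mitochondrial median was 0.10 without MCH replicate 1 and 0.08 with limma on log2(FPKM + 1), a scale that understates the change of low genes. The enzymes differed in precision: the median SE of the log2 fold change was 0.14 for the mitochondrial and 0.06 for the cytosolic genes, and mean counts per library ran from 80.8 to 1148 and from 287 to 12040. The compartments are set side by side as a description, with no test of their difference.

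Their summed level was 390, 397 and 414 CPM with MCH and 366, 372 and 372 CPM in Control. All 3 MCH sums lay above all 3 Control sums. With Lars2, the mitochondrial synthetase outside the member list, the sums overlapped, from 428.9 to 444.2 CPM with MCH and from 402.2 to 466 CPM in Control, and the median log2 fold change of the 17 genes was 0.16. The library's median log2 difference from the Control mean was 0.10, 0.23 and 0.21 over the 16 genes with MCH, and -0.02, 0.04 and -0.03 in Control, so MCH replicate 1 stood closest to Control.

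Cars2 (ENSMUSG00000056228, chr8:11514021-11550771), the mitochondrial cysteinyl-tRNA synthetase, had 35.7, 40.5 and 35.6 CPM with MCH and 29.1, 26.6 and 29.4 CPM in Control. The groups did not overlap, and the log2 fold change was 0.39 ± 0.09 (adjusted p = 0.0348; held without MCH replicate 1 and lost without each other library, highest adjusted p = 0.115). Its exons share 422 bases with Naxd on the opposite strand, and without a stated strand setting reads there cannot be told apart. Cars, its cytosolic partner, had 332, 381 and 352 CPM with MCH and 326, 308 and 291 CPM in Control (0.20 ± 0.07, adjusted p = 0.129). The Cars2 to Cars ratio of FPKM overlapped between the groups, at 0.355, 0.352 and 0.334 with MCH and 0.295, 0.285 and 0.334 in Control.

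Tars2, the mitochondrial partner of Tars, had 34.4, 29.8 and 24.9 CPM with MCH and 29.9, 33.0 and 29.4 CPM in Control (-0.05 ± 0.12). Fars2, which charges phenylalanine tRNAs in the mitochondrion with 1 subunit, had 24.9, 23.6 and 24.5 CPM with MCH and 26.1, 23.6 and 23.4 CPM in Control, with a change of 0.00 ± 0.08. Both had overlapping groups. Lars2, outside the member list, was uneven: it had 38.6, 44.4 and 30.4 CPM with MCH but 95.1, 93.6 and 30.1 CPM in Control. Control replicate 3 thus lay with the MCH libraries (-0.95 ± 0.49, adjusted p = 0.303).

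Rars2, the arginyl enzyme of the mitochondrion, had 29.1, 33.2 and 35.4 CPM with MCH and 27.0, 26.8 and 23.5 CPM in Control, with no overlap (0.34 ± 0.10, adjusted p = 0.0842). Yars2, the tyrosyl enzyme, was the third mitochondrial gene without overlap, at 13.2, 16.3 and 14.7 CPM with MCH and 11.6, 11.8 and 11.8 CPM in Control (0.33 ± 0.11, adjusted p = 0.111). The tryptophanyl gene Wars2 had the highest log2 fold change of the members, 1.14 ± 0.51, but its values were 5.34, 16.2 and 17.1 CPM with MCH and 3.99, 7.80 and 5.63 CPM in Control. MCH replicate 1 lay within the Control range, and the adjusted p was 0.225. DESeq2 called Wars2 and Pstk in addition, and without MCH replicate 1 both were called by edgeR too.

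The mitochondrial enzymes with changes below 0 were Iars2 (-0.14 ± 0.12), Vars2 (-0.09 ± 0.07), Sars2 (-0.06 ± 0.15) and Tars2, all with overlapping groups. Above 0 and also overlapping were Mars2 (0.28 ± 0.22), Nars2 (0.16 ± 0.23) and Aars2 (0.04 ± 0.15). Iars2 shares 2034 of its 8885 exon bases with Rab3gap2 on the opposite strand.

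**Figure D4:**
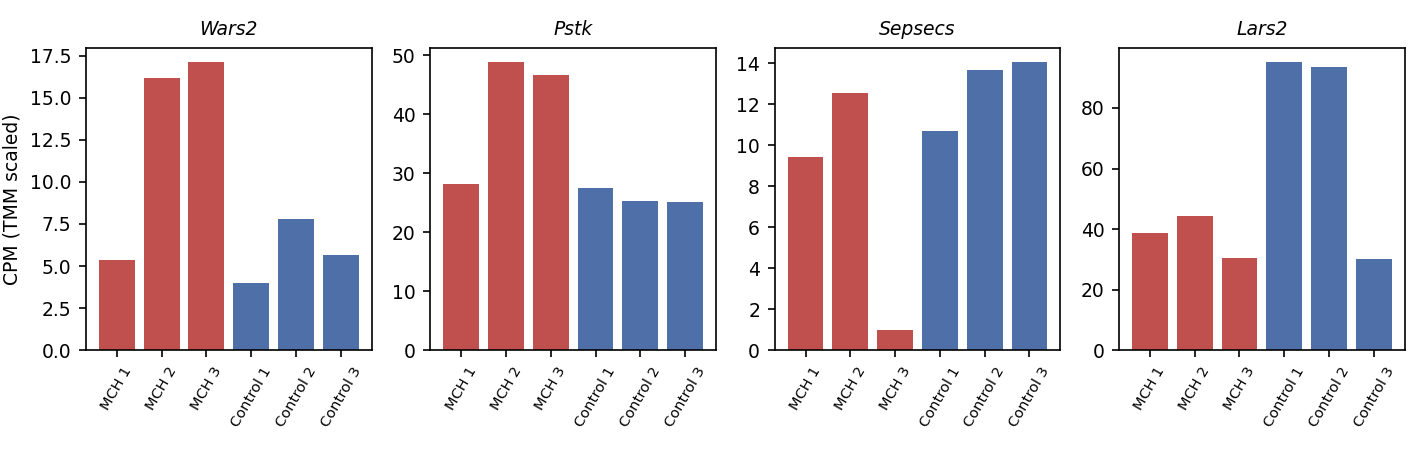
CPM (vertical axes, from 0) of Wars2, Pstk, Sepsecs and Lars2 in the 6 libraries, MCH in red and Control in blue. In each panel libraries of 1 group stand apart from each other: MCH replicate 1 for Wars2 and Pstk, MCH replicate 3 for Sepsecs and Control replicate 3 for Lars2.

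Compared per length, on the deposited FPKM averaged over all 6 libraries, the cytosolic gene stood above its mitochondrial partner in 17 of 17 pairs that charge the same amino acid. The median ratio was 8.43. It was lowest for Farsa over Fars2 (1.21) and highest for Mars over Mars2 (87.5), where Mars2 stood at 0.409 FPKM and Mars at 35.8 FPKM. The highest members by FPKM were Nars, the asparaginyl enzyme (152 FPKM), and Gars (152 FPKM), then Kars (134 FPKM) and Tars (101 FPKM). Aars had the most counts of any member, 10770 to 12886 in a library, but stood at 53.0 FPKM. This order depends on the gene lengths behind the FPKM and was not repeated with another length. The gene lengths implied by the FPKM ran from 0.589 to 4.45 times that of the longest annotated transcript. With that transcript's length instead, a setting chosen after seeing the data, the cytosolic gene was also higher in all 17 pairs, with a median ratio of 8.31 and a range from 3.51 to 134.

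**Figure D5:**
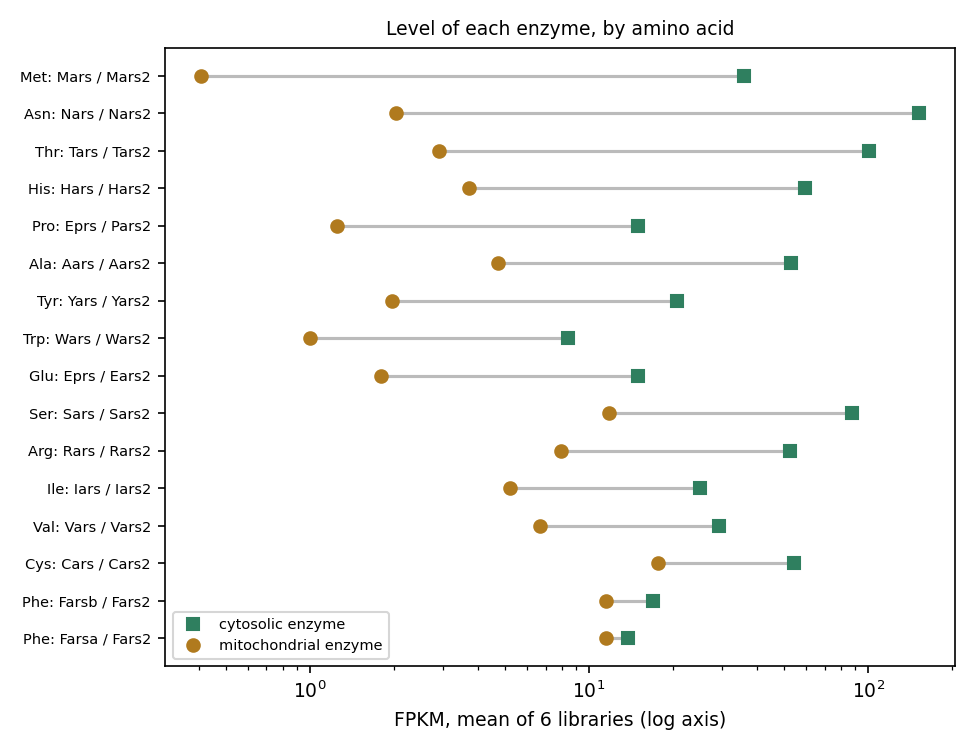
Mean FPKM over the 6 libraries (horizontal log axis) of the cytosolic (squares) and mitochondrial (circles) enzyme for each amino acid. The square lies to the right of the circle in all 16 pairs drawn, closest for Farsa and Fars2 and farthest for Mars and Mars2.

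The changes of the partners were set side by side without a test. In 10 of the 17 pairs the mitochondrial gene had the larger log2 fold change and in 7 the cytosolic one, 12 pairs had both above 0, and no pair had both called. Some pairs share a partner, since Farsa and Farsb stand against Fars2 and Eprs against both Ears2 and Pars2. Pars2, the prolyl enzyme, had 12.6, 9.59 and 7.60 CPM with MCH and 8.66, 4.39 and 4.93 CPM in Control, with overlapping groups (0.73 ± 0.30, adjusted p = 0.178). Hars and Hars2, the histidyl pair, lie head to head on chromosome 18 and share 195 exon bases on opposite strands. Their changes were 0.12 ± 0.05 and 0.06 ± 0.08, neither called.

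The other 6 members act on tRNAs that already carry an amino acid. Mammalian mitochondria have no glutaminyl-tRNA synthetase of their own: Ears2 loads glutamic acid on the glutamine tRNA, and the GatCAB amidotransferase converts it to glutamine. Of its subunits, Gatc and Qrsl1 (GatA) were higher and Gatb was not. Gatc (ENSMUSG00000029536, chr5:115333239-115341178) had 27.3, 27.6 and 26.8 CPM with MCH and 19.9, 20.6 and 14.5 CPM in Control. The groups did not overlap, and Control replicate 3 was the lowest library (0.57 ± 0.14, adjusted p = 0.0409). The Gatc call was lost in each of the 6 fits with 1 library left out (adjusted p from 0.0566 to 0.121), and without Control replicate 3 the change was 0.43.

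Qrsl1 (ENSMUSG00000019863, chr10:43874188-43901745) had 10.9, 12.1 and 11.8 CPM with MCH and 8.48, 8.58 and 8.42 CPM in Control, with no overlap (0.45 ± 0.11, adjusted p = 0.0455). This call was kept without MCH replicate 1 and lost without each other library (highest adjusted p = 0.149), and DESeq2 did not make it (adjusted p = 0.0633), nor did the fit with no filter on low counts (adjusted p = 0.0621). Gatb had 9.92, 12.0 and 10.7 CPM with MCH and 11.2, 10.5 and 12.5 CPM in Control, with overlapping groups (-0.07 ± 0.13).

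The ratio of Qrsl1 to Gatb FPKM was 1.46, 1.34 and 1.46 with MCH and 1.01, 1.09 and 0.898 in Control, without overlap. That of Gatc to Gatb was 8.65, 7.25 and 7.85 against 5.58, 6.15 and 3.64, again without overlap. Ears2, the enzyme before this step, had 11.1, 14.5 and 15.3 CPM with MCH and 8.05, 11.1 and 13.0 CPM in Control, with overlapping groups (0.34 ± 0.20).

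Pstk and Sepsecs make selenocysteine on its tRNA in successive steps, and Mtfmt formylates the mitochondrial initiator methionine tRNA. Pstk had 28.2, 48.9 and 46.7 CPM with MCH and 27.5, 25.3 and 25.1 CPM in Control. MCH replicate 1 stood just above Control and the other 2 well above (0.67 ± 0.20, adjusted p = 0.0964). Pstk shares 4652 of its 7914 annotated exon bases with Ikzf5 on the opposite strand, so its reads and those of Ikzf5 cannot be told apart there. Sepsecs had 9.45, 12.5 and 0.986 CPM with MCH and 10.7, 13.7 and 14.1 CPM in Control. It rested on 17 counts in MCH replicate 3, far below every other library (-0.74 ± 0.83, adjusted p = 0.630). Mtfmt had 16.2, 21.2 and 19.6 CPM with MCH and 17.7, 18.3 and 17.5 CPM in Control (0.09 ± 0.12).

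ATF4 and genes of the amino acid response were described beside the synthetases, from a list chosen with earlier results known. Over all genes tested 3.64% were called higher and 5.4% lower by edgeR, and by DESeq2 671 and 848 of 13652 genes. The share of all genes at an unadjusted p under 0.05 is not given, so counts at that p stand without a background. Of 24 listed genes, 11 were higher and none lower (12 and 0 by DESeq2; 16 higher and 4 lower at an unadjusted p under 0.05), with a median log2 fold change of 0.27. Slc3a2 and Slc7a5, the heavy and light chains of a large neutral amino acid transporter, rose by 0.42 ± 0.06 (adjusted p = 0.00901) and 0.44 ± 0.07 (adjusted p = 0.00920). Psph, the last enzyme of serine synthesis, rose by 0.51 ± 0.09 (adjusted p = 0.0135), from 43.2 ± 4.20 to 61.7 ± 0.703 CPM (SD, n = 3). Atf4 itself did not pass (0.20 ± 0.07, adjusted p = 0.107), although its 777.9, 842 and 821.6 CPM with MCH all lay above its 747, 694.5 and 687.2 CPM in Control. The kinase genes Eif2ak4, whose product senses uncharged tRNA, and Eif2ak3 had changes of -0.20 ± 0.09 and -0.34 ± 0.10, not past the threshold. Atf3 (-0.20 ± 0.08) and Ddit4 (-0.16 ± 0.06) did not pass either. In these 4 genes every MCH library lay below every Control library, beside 16.6% of all genes. In 16 of the 24 every MCH library lay above every Control library, beside 16.1% of all genes. Of the 24 changes 20 lay above 0, beside 50.3% of all genes.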

How the data were processed

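Per the labels' protocols, libraries of polyadenylated RNA were made from 6 samples (VAHTS Universal V6). The authors deposited 1 table of raw counts and FPKM for each gene and library, per the file headers, beside their own p-values and q-values. The submitters' processing notes name GRCm38 (mm10). The aligner, counter, annotation, strand and test behind the table were not given in the sources used here. These counts went into edgeR 4.0.16 (R 4.3.3) with TMM scaling, filterByExpr (minimum count 10) and a robust quasi-likelihood fit on group, two-sided, with Benjamini-Hochberg adjustment at 0.05. CPM values are TMM scaled, a log2 fold change is MCH over Control, and each SE is the unshrunken log2 coefficient over the square root of its F statistic. Members and lists were chosen with earlier results of these data known. No test over a list was run. Values are given for every called member, its partner in the other compartment, the complex and the 3 uncalled members with the smallest p; further genes were named after their values were seen. No library was a copy of another (pairwise chi-square over degrees of freedom, 16 to 27.1). All 43 member IDs are in GENCODE M21, and 16 share exon bases with another gene there. Alternatives were RLE and upper-quartile scaling, other count filters, DESeq2 1.42.0, limma 3.58.1 (voom, and log2 FPKM with 1 or 0.1 added), a block on replicate number and the fit without each library in turn; those added after seeing the data are named as such. Some items are not reported here. Steps were tested on simulated counts.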

Additional observations from a re-analysis of the deposited data

How the results depend on the processing

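Counts of members called were the values most dependent on processing, while the direction of the medians and of the 9 members followed through the alternatives was the same in each. With 1 library left out, genes called higher ran from 65 to 722 and lower from 256 to 867 (497 and 738 with all libraries), members called higher from 0 to 11, cytosolic synthetases from 0 to 4 and mitochondrial ones from 0 to 4, the median of the members from 0.14 to 0.18, of the cytosolic from 0.13 to 0.16 and of the mitochondrial synthetases from 0.10 to 0.29. The replicate number as a block gave 28 genes higher and 151 lower, and 0 members, 0 cytosolic and 0 mitochondrial synthetases called. Samples with the same number did not deviate together (correlations across genes of -0.16, -0.04 and -0.01), so the numbers were not taken to pair the samples. With the trend on transcript length and GC content removed, chosen after seeing the data, 1025 genes were higher, 12 members and 7 cytosolic synthetases were called, and the medians were 0.22 for the members and 0.23 for the cytosolic synthetases; this setting moved the median of all genes to 0.043. DESeq2 called 2 mitochondrial synthetases against 1. With limma on log2(FPKM + 1) the mitochondrial median was 0.08. RLE scaling and a minimum count of 30 kept the same 6 members, and upper-quartile scaling, limma-voom and limma on FPKM kept 5 of them, without Tars. DESeq2 kept 5, without Qrsl1, and no filter on low counts kept 4, without Tars and Qrsl1. Taking names ending in 2 literally, or counting Gars and Kars as cytosolic, moved no count by over 1.5 times. Without the members that share exon bases with another gene of the table, an alternative added after seeing the data, 5 members, 3 cytosolic and 0 mitochondrial synthetases were called and the mitochondrial median was 0.31; with any annotated gene the counts were 4, 2 and 0 and that median again 0.31. Low counts and uneven libraries were not told apart as limits on precision, where SEs reached 0.51 for Wars2 and 0.83 for Sepsecs.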

Other observations

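Genes that make and modify tRNAs were described from lists chosen with earlier results known. Over all genes tested 3.64% were called higher and 5.4% lower by edgeR. The share of all genes at an unadjusted p under 0.05 is not given. Counts at that p, here and in the next paragraph, thus stand without a background. Of 19 tested genes for tRNA processing and export, 2 were higher and none lower (3 and 0 by DESeq2; 9 and 0 at an unadjusted p under 0.05), with a median log2 fold change of 0.22. They were Rpp21 and Pop5, which encode protein subunits of ribonuclease P, the enzyme that trims tRNA precursors. Rpp21 had 28.3 ± 4.19 CPM with MCH against 18.5 ± 1.61 CPM without (SD, n = 3), a change of 0.61 ± 0.13 (edgeR adjusted p = 0.0298). Pop5 had 16.2 ± 2.18 and 10.95 ± 1.24 CPM, a change of 0.56 ± 0.14 (adjusted p = 0.0488). Of 26 tRNA modification genes none was called by edgeR or DESeq2, 6 were higher and none lower at an unadjusted p under 0.05, and the median was 0.14.

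Among 22 genes of RNA polymerase III, which transcribes tRNA genes, and its factors, the median log2 fold change was 0.07. The subunit gene Polr3gl fell by 0.43 ± 0.09 (edgeR adjusted p = 0.0242), while Polr3g, which encodes the alternative form of that subunit, had a change of 0.33 with an adjusted p of 0.190. None of 10 mitochondrial translation factors was called by edgeR or DESeq2 (1 was higher and 0 lower at an unadjusted p under 0.05; median 0.08). Of 7 cytosolic elongation genes none was called by edgeR and 1 was higher by DESeq2 (1 higher and 0 lower at an unadjusted p under 0.05; median 0.02).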
